A study of Homo sapiens with 64 samples.

Results

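SW48 and HCT15 are established human colorectal cancer cell lines, and the cells compared here were their cycling, non-label-retaining cells (non-LRCs). CFSE is a dye that is thinned out at each division, so that cells which have divided little stay bright (label-retaining cells, LRCs) and the remaining cells make up the non-LRC bulk. Both lines were grown as spheroids in serum-free, nonadherent culture, were labeled with CFSE and were sorted on day 6. Each line is a single tumor's descendant, so a difference between them is a difference between these 2 lines and not between subtypes. The members were the 4 non-LRC libraries of SW48 and the 4 of HCT15, 8 of the 64 libraries of the series. SW48 had been assigned to colon cancer subtype CCS2, together with RKO, and HCT15 to CCS3, together with DLD1, and DLD1 and HCT15 are known to derive from the same tumor.

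The pair was chosen from the expression values themselves, as the CCS2 line and the CCS3 line that it resembled more than it resembled RKO. Pearson's r between line means of log2 CPM (counts scaled to library size) over 15779 genes was 0.863 for SW48 and HCT15, 0.853 for SW48 and DLD1, and 0.827 for SW48 and RKO, its partner in CCS2. The closest pair of lines was DLD1 and HCT15 at 0.950, and the least alike were HT55 and RKO at 0.715. The choice rested on this correlation over the LRC and non-LRC libraries of each line together. The values given here are from non-LRCs alone and serve as a description, without a test. The counts of differing genes below describe the pair and are no measure of how alike the lines are.

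As background, colorectal cancers arise from the lining of the large bowel, which normally carries the transcription factor CDX2 and the brush border protein villin (VIL1). Most of them have a switched-on Wnt pathway, in which β-catenin enters the nucleus and drives genes such as AXIN2 and LGR5 together with TCF and LEF factors. CCS2 tumors are known for microsatellite instability, that is, loss of DNA mismatch repair.

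Between 13410871 and 17334036 reads per library fell on genes in SW48 non-LRCs and between 13254613 and 16271761 in HCT15 non-LRCs. Mitochondrial genes took 9.66% to 11.3% of these reads in SW48 and 4.44% to 7.79% in HCT15. Replicates were not equally close. SW48 replicate 2 stood apart, where the chi-square averaged over genes was 35.8 to 55.3 against the other SW48 libraries, which differed from each other by 6.48 to 17.8. In HCT15, replicates 1 and 2 stood apart from replicates 3 and 4, at 23.6 to 33.4 across and 17.8 and 6.49 within. The results were therefore also computed without SW48 replicate 2 and without either HCT15 pair.

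Of 14093 genes tested, 9201 (65.3%) passed at an adjusted p of 0.05 in the quasi-likelihood test of edgeR, 4504 higher in SW48 and 4697 higher in HCT15. Below, a gene is called higher when it also differed at least 2-fold. By that rule 1896 genes (13.5%) were higher in SW48 and 2251 (16%) were higher in HCT15, and the shares of each gene list are read against these backgrounds. Without SW48 replicate 2 these counts were 1998 and 2360, without HCT15 replicates 1 and 2 they were 1906 and 2344, and without HCT15 replicates 3 and 4 they were 1903 and 2192. The split depended on scaling. When library size was taken without TMM, the median log2 fold change of all genes moved from -0.02 to -0.22, and the share of calls at an adjusted p under 0.05 that were higher in SW48 fell from 49% to 36.1%. All log2 fold changes below are SW48 over HCT15, so that a negative value is higher in HCT15.

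**Figure D1:**
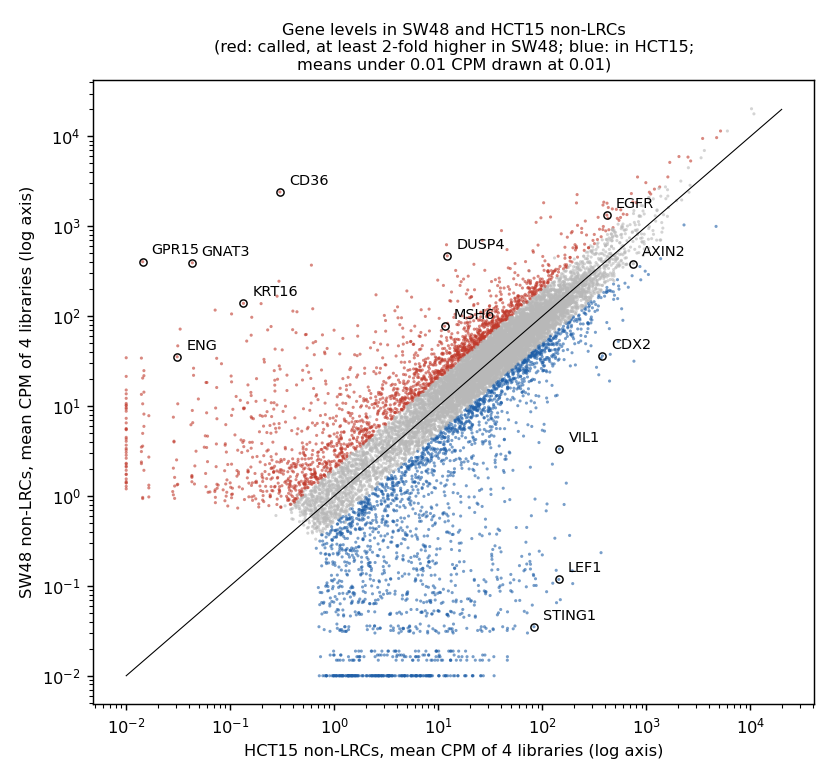
Mean CPM of each tested gene in HCT15 (x axis) and SW48 (y axis) non-LRCs, both on log axes, 4 libraries per line, with genes called at least 2-fold higher in SW48 in red and in HCT15 in blue. CD36 at 2413 CPM in SW48 and 0.300 in HCT15 lies far above the diagonal, and STING1 at 0.0351 and 83.1 CPM far below it.

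The genes that differed most were near-absent in one line. In bulk libraries such as these, fewer cells with a transcript and less of it per cell cannot be told apart. Those highest in SW48 were GPR15, a chemoattractant receptor of gut-homing lymphocytes, CD36, a fatty acid scavenger receptor, and GNAT3, the taste G protein gustducin. GPR15 (ENSG00000154165, chromosome 3 of GRCh37 from 98250822 to 98253525) stood at 336, 363, 472 and 444 CPM in the 4 SW48 libraries. HCT15 gave a single GPR15 read over its 4 libraries, a ratio of 27241 with an exact 95% counting interval of 4889 to 1076023. CD36 (ENSG00000135218, chromosome 7 from 79998891 to 80308593) stood at 2143, 2350, 2711 and 2446 CPM in SW48 and at 0.168 to 0.356 in HCT15, a log2 fold change of 12.94 (SE 0.21, adjusted p = 3.70e-12). GNAT3 was at 317 to 452 CPM in SW48 and at 3 reads in all in HCT15, a ratio of 8855 (interval 3030 to 42941). GNAT3 lies inside the span of CD36, at 80087951 to 80141380, and whether the counting used strand is not given in the sources used here, so its reads cannot be told apart from unspliced CD36 reads. GNAI1, an inhibitory G protein gene next to them that was picked after its values were seen, was also higher in SW48 at 73.5 against 4.55 CPM (log2 fold change 4.01, SE 0.16, adjusted p = 1.04e-09).

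The other 7 of the 10 largest differences toward SW48 ranged from 21.4 to 139 CPM there. NKX2-5, a heart and spleen homeobox factor, had 18.6 to 24.6 CPM in SW48 and no read in HCT15, at least 480-fold higher against a floor of 3 counts over the 4 libraries. SLC38A5, a glutamine and serine carrier, was at 71.9 CPM against 2 reads in HCT15, a ratio of 2419 (interval 669 to 19979). OBSL1, a cytoskeletal adaptor, was at 117 against 0.0716 CPM (log2 fold change 10.48, SE 0.27, adjusted p = 3.86e-11). B3GALT5, a galactosyltransferase that builds type 1 sugar chains, CD302, a lectin receptor, and HPDL, a mitochondrial dioxygenase, had 1 read each in HCT15 and 34.2, 24.8 and 21.8 CPM in SW48. KRT16, a keratin of stressed squamous epithelium, was the least even of the 10, at 227, 40.8, 144 and 143 CPM in the SW48 libraries, with 40.8 in replicate 2.

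Toward HCT15, 7 of the 10 largest differences had no read in any SW48 library. PROSER2 was at 31.4 to 36.9 CPM in HCT15, at least 690-fold higher than the floor. B3GALNT1, the globoside synthase, was at 23.7 to 29.7 CPM and at least 543-fold higher. SH3GL2, an endocytic protein of nerve endings, was at least 514-fold higher, COCH at least 431-fold, MPP1 at least 428-fold and the microtubule protein gene MAPT at least 427-fold. STING1, which relays the alarm raised by DNA in the cytosol, was at 76.2, 65.9, 99.8 and 90.6 CPM in HCT15 and at 2 reads in all in SW48, a ratio of 2492 (interval 689 to 20580). EEF1A2, the muscle and nerve form of an elongation factor, was at 149 against 0.0702 CPM (log2 fold change -10.97, SE 0.33, adjusted p = 1.87e-10). KCNJ8, a potassium channel subunit, was at 31.1 to 60.4 CPM in HCT15 against 1 read in SW48, a ratio of 2757 (interval 495 to 108941).

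**Figure D2:**
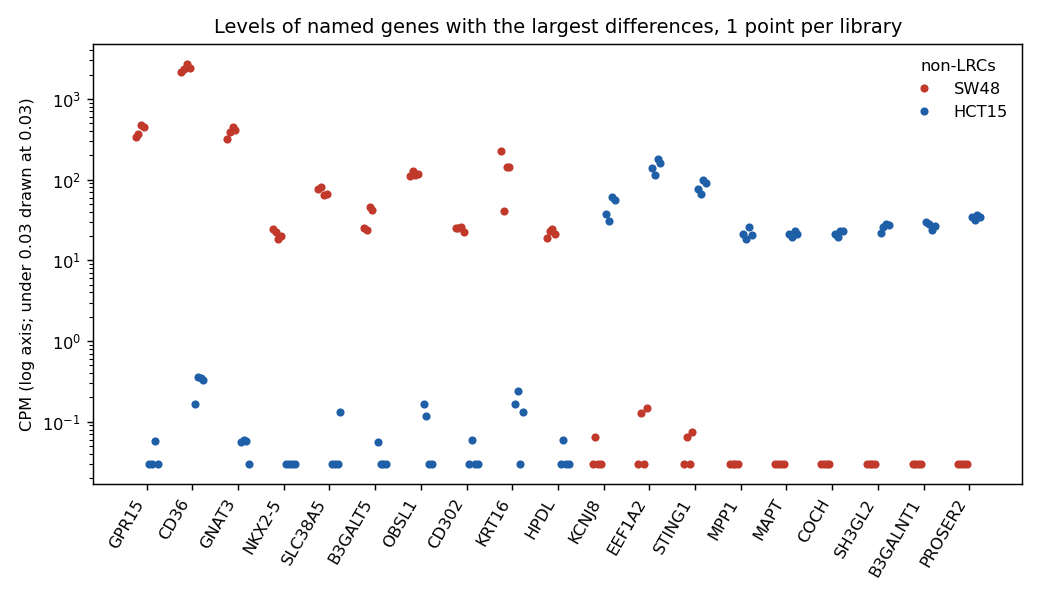
CPM (log axis, values under 0.03 drawn at 0.03) of 19 named genes among those with the largest differences, 1 point per library, 4 SW48 and 4 HCT15 non-LRC libraries. By the rule that chose these genes, no gene's SW48 points overlap its HCT15 points. MPP1, MAPT, COCH, SH3GL2, B3GALNT1 and PROSER2 have every SW48 point at 0.

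Near-absence was counted over all protein-coding genes outside chromosome Y, as a mean of at least 20 CPM in one line and at most 3 reads in every library of the other. By this rule 12 genes were present in SW48 and near-absent in HCT15, and 77 were present in HCT15 and near-absent in SW48. The 77 genes reached 1 CPM in DLD1 non-LRCs in 73 cases, in SW948 in 53, in HT55 in 53 and in RKO in 39. Of the 12, 7 reached 1 CPM in SW948, 5 in HT55, 5 in RKO and 1 in DLD1. The 5 shared with RKO were HPDL, NKX2-5, OBSL1, SLC17A9 and SLC38A5, named here after their values were seen. CD36 was under 1 CPM in all of the other 5 lines, and so were GPR15 and GNAT3.

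Among genes of DNA mismatch repair, MSH6, whose protein helps to find mismatched bases, was at 71.3, 84.2, 78.7 and 76 CPM in SW48 and 10.9, 15.2, 11.4 and 8.57 in HCT15. The groups did not overlap (log2 fold change 2.74, SE 0.15, adjusted p = 1.75e-08). RKO had 130 CPM and DLD1 22.8 CPM. MSH6 does not stand for its list, in which 6 of 8 tested genes were higher in neither line. The list's median log2 fold change was 0.26.

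The interferon-stimulated genes are a set that cells switch on after viral or DNA alarm signals, through factors that include IRF9. Of 38 matched members 32 were tested, and 20 were higher in HCT15, none was higher in SW48 and 12 were neither. Their median log2 fold change was -1.59, against -0.02 over all genes tested. At an adjusted p under 0.05 without the fold rule, 29 of the 32 were called and all 29 lay toward HCT15. Without TMM the counts were 22 and 0, without SW48 replicate 2 they were 22 and 0, and without either HCT15 pair 19 to 21 and 0. The largest difference was in IFITM2, a membrane protein that blocks virus entry, at 129, 126, 156 and 136 CPM in HCT15 and 4 reads in all in SW48 (log2 fold change -10.85, SE 0.23, adjusted p = 9.66e-12). HERC5, the ligase that attaches the ubiquitin-like ISG15, was at 11.3 to 15.7 CPM in HCT15 against 1 read in SW48. SAMD9L had no read in SW48 and 0.783 to 1.91 CPM in HCT15, at least 30.1-fold higher. ISG15 was at 34.9 to 54.6 CPM in HCT15 and 4.36 to 7.05 in SW48 (log2 fold change -2.96, SE 0.18, adjusted p = 4.44e-08). The groups of these 4 genes did not overlap. The share of all tested genes without overlap is not given here, so this does not set the 4 genes apart. STING1 can act upstream of this set, and whether its level bears on these genes was not tested. Among its partners, TBK1 and IRF3 differed less than STING1 itself. CGAS, the sensor before it, had 7 reads in SW48 and 4 in HCT15 and was not tested. TBK1, the kinase after it, was at 41.0 and 37.6 CPM (log2 fold change 0.12, SE 0.13, adjusted p = 0.428). IRF3, the factor it activates, was at 42.7 and 54.8 CPM (log2 fold change -0.37, SE 0.12, adjusted p = 0.0149), a call that was lost without SW48 replicate 4 and without HCT15 replicates 1 and 2. CGAS, TBK1 and IRF3 were picked after the values of STING1 were seen.

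The promoters of these genes carry a common letter pattern, the core of the interferon-stimulated response element, GAAANNGAAA. It was searched on both strands, overlapping matches included, in RefSeq windows of 250 bases before to 50 after each transcript start (GRCh38.p14). The windows of 29 of the list's genes were found, and 21 of them (72.4%) held it, against 4.38% of all 27305 genes and 3.57% of all 35116 windows. Among genes called higher in HCT15, 12 of 16 held it, and among tested members that were neither, 5 of 8 did. A stretch of the promoter is shown for 5 of the members called higher in HCT15, picked after their values were seen to show where the pattern lies, on the gene's own strand from 5′ to 3′, with the pattern or its reverse complement in capitals.
HERC5, chr4:88457020-88457079, plus strand: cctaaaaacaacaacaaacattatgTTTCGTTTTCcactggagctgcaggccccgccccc
IFITM1, chr11:313975-314034, plus strand: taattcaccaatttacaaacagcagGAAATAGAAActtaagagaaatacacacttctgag
IFI27, chr14:94110616-94110675, plus strand: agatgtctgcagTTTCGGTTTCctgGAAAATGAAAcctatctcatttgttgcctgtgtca
IFI6, chr1:27672251-27672310, minus strand: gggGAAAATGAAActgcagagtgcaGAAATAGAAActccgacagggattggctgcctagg
ISG15, chr1:1013365-1013424, plus strand: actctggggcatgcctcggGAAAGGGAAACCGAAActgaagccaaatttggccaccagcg
The last match ended 64 bases before the start in HERC5, 30 in IFITM1, 85 in IFI27, 83 in IFI6 and 97 in ISG15. In ISG15 the capitals are a pair of matches that share 4 letters. IFITM1 was at 0.765 CPM in SW48 and 26.4 in HCT15, IFI27 at 0.116 and 3.14, and IFI6 at 3.60 and 38.5. In IFI6 the HCT15 libraries fell into the same pairs, at 22.9 and 19.6 against 61.3 and 50.4 CPM, and all were above the SW48 libraries at 1.56 to 6.33. A match is a description of letters, not a bound site.

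Genes that mark the colon lining were lower in SW48. Of 11 tested colorectal epithelial markers 9 were higher in HCT15 and none in SW48, with a median log2 fold change of -1.92, and their summed level was 2655 to 3747 CPM in the SW48 libraries and 7039 to 7885 in HCT15. VIL1 was at 2.45 to 4.57 CPM in SW48 and 95.5 to 193 in HCT15 (log2 fold change -5.45, SE 0.31, adjusted p = 3.00e-07). CDX2, the homeobox factor of gut identity, was at 30.8, 48.9, 30.9 and 34.1 CPM in SW48 and 314, 252, 486 and 462 in HCT15 (log2 fold change -3.39, SE 0.25, adjusted p = 1.07e-06). The markers were lower, not absent, and RKO had 20.2 CPM of CDX2 and 0.276 of VIL1, DLD1 239 and 104.

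Of 16 tested enterocyte genes 13 were higher in HCT15, 2 were higher in SW48 and 1 was neither, with a median log2 fold change of -3.35. CDHR5, a brush border cadherin, had 4 reads in SW48 and 6.46 to 20.3 CPM in HCT15. AQP3, a water and glycerol channel, was at 0.450 and 28.5 CPM, and ALPI, intestinal alkaline phosphatase, had 1 read in SW48 and 1.37 CPM in HCT15. DPP4, a brush border peptidase, was the clear exception at 316, 204, 306 and 287 CPM in SW48 and 7.44, 5.04, 21.3 and 27.4 in HCT15 (log2 fold change 4.19, SE 0.52, adjusted p = 0.000115). The other exception, CDHR2, at 0.946 and 0.356 CPM, lost its call when any of 6 single libraries was left out. Intestinal transcription factors split, with 5 of 16 higher in SW48 and 8 in HCT15. KLF5, of crypt cells, was at 625 against 206 CPM, while GATA6, of endoderm, was at 0.552 against 28.4 CPM (log2 fold change -5.68, SE 0.28, adjusted p = 6.94e-09). SOX2, a foregut and stem cell factor, was at 0.717 to 2.22 CPM in SW48 and 1 read in HCT15. Of 8 tested goblet and secretory genes 2 were higher in SW48 and 4 in HCT15, among them AGR2, a mucin folding enzyme, at 0.413 and 38.9 CPM. MUC2, the main goblet mucin, had no read in SW48 and 4 in HCT15. KRT20, a keratin of differentiated colon cells, was at 0.315 and 2.94 CPM (log2 fold change -3.13, SE 0.50, adjusted p = 0.000152).

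Cell contacts and keratins also differed. Of 17 tested claudin and tight junction genes 2 were higher in SW48 and 8 in HCT15. CLDN4 was at 12.8 to 25.9 CPM in SW48 and 417 to 467 in HCT15 (log2 fold change -4.55, SE 0.19, adjusted p = 1.84e-09), and TJP3, a scaffold of the junction, was at 3.93 and 92.9 CPM. Of 26 epithelial state genes 2 were higher in SW48 and 7 in HCT15. CDH1, E-cadherin, was called at an adjusted p of 0.000399 but under 2-fold, at 560 and 955 CPM (log2 fold change -0.77, SE 0.14). ESRP1, an epithelial splicing factor, was at 130 to 221 CPM in SW48 and 15.2 to 25 in HCT15. Of 17 tested mesenchymal state genes 5 were higher in SW48 and 6 in HCT15. CALD1, an actin-binding protein, was at 39.9 and 0.807 CPM and COL6A1, a collagen, at 252 and 9.88, whereas THBS1, thrombospondin, was at 0.924 and 85.1 and COL4A2 had 3 reads in SW48. VIM, vimentin, was at 0.412 and 0.786 CPM and was not tested. Of 15 tested keratins 9 were higher in SW48 and 3 in HCT15, a median log2 fold change of 1.49. KRT14, of basal squamous cells, had no read in HCT15 and 16.9, 2.02, 12.8 and 11.1 CPM in SW48, at least 239-fold higher, with replicate 2 again the lowest. The 3 higher in HCT15 were KRT20, KRT19 at 317 and 975 CPM and KRT8 at 1036 and 2302 CPM. KRT8 and KRT19 are keratins of simple epithelium, and so is KRT7, picked after its value was seen, which was at 16.9, 3, 9.2 and 8.2 CPM in SW48 and 4.75, 3.62, 3.57 and 1.98 in HCT15 (log2 fold change 1.41, SE 0.47, adjusted p = 0.0234). The groups of KRT7 overlapped, and its call was lost without SW48 replicate 1 and without HCT15 replicate 2, 3 or 4. The call was also lost without either HCT15 pair and without the filter on low counts.

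**Figure D3:**
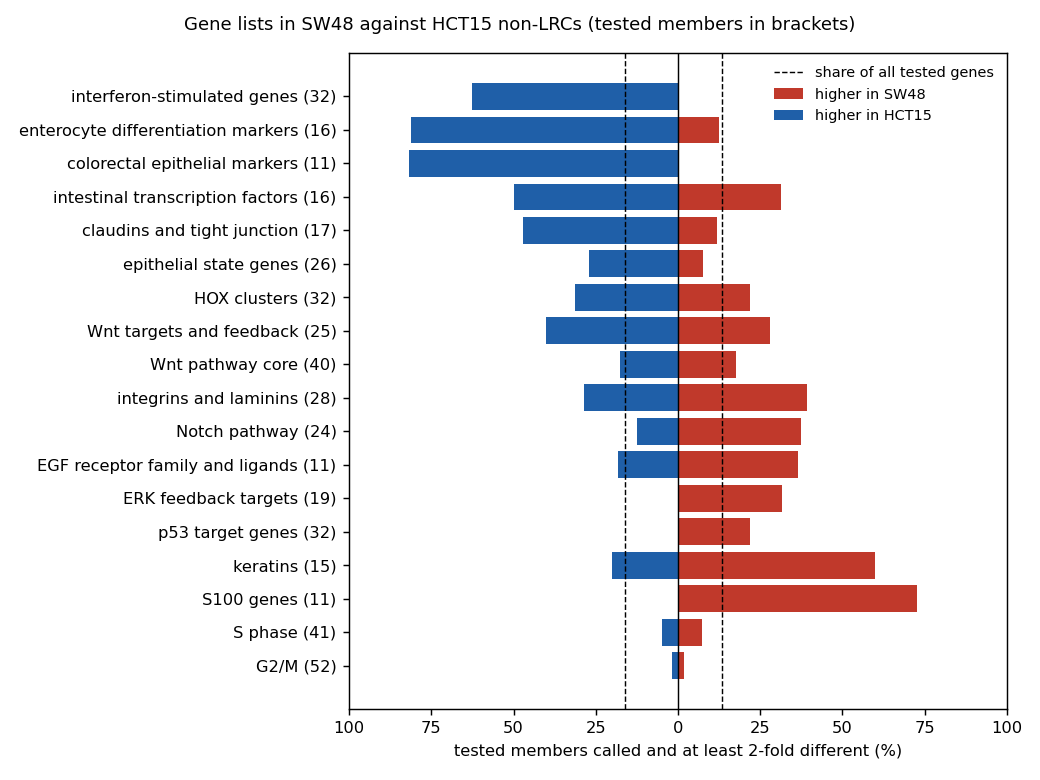
Share (%) of the tested members of 18 gene lists that were called and at least 2-fold higher in SW48 (red, to the right) or HCT15 (blue, to the left), with dashed lines at the shares of all tested genes, 13.5% and 16%. Colorectal epithelial markers and interferon-stimulated genes have no red bar, and S100 genes, ERK feedback targets and p53 target genes have no blue bar.

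S100 genes, small calcium-binding proteins, were higher in SW48 in 8 of 11 tested members and in HCT15 in none, with a median log2 fold change of 2.43, and these counts were the same without TMM, with DESeq2 and without each of the doubted libraries. S100A2 was at 103 to 127 CPM in SW48 and 5.80 to 7.95 in HCT15, and S100A5 at 14.9 and 0.351 CPM. Several lie next to each other on chromosome 1. RKO had more S100A2 than either line, at 2836 CPM. Of 28 tested integrins and laminins 11 were higher in SW48 and 8 in HCT15. LAMB3, a chain of the hemidesmosome ligand laminin-332, was at 2776, 756, 1951 and 1799 CPM in SW48 and 181 to 239 in HCT15 (log2 fold change 3.10, SE 0.35, adjusted p = 3.95e-05), and LAMA1 had 1 read in SW48.

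Wnt target and feedback genes did not move as one. Of 25 tested, 7 were higher in SW48, 10 in HCT15 and 8 neither, a median log2 fold change of -0.24, and without TMM the counts were 5 and 12. LEF1 (ENSG00000138795, chromosome 4 from 108968701 to 109090112), a nuclear partner of β-catenin, was at 116, 114, 165 and 179 CPM in HCT15 and at 7 reads in all in SW48 (log2 fold change -10.18, SE 0.34, adjusted p = 7.89e-10). APCDD1, a secreted inhibitor, was at 80.6 and 77.3 CPM in HCT15 replicates 1 and 2 and 242 and 250 in replicates 3 and 4, against 0.602 to 1.02 in SW48. TDGF1 was at 1.86 CPM in HCT15 and 4 reads in SW48. LGR5, the stem cell receptor for R-spondin, was low in both lines and higher in SW48, at 1.67 to 4.76 against 0 to 0.230 CPM (log2 fold change 4.43, SE 0.52, adjusted p = 1.14e-05). CD44, a surface target of the pathway, was at 285 and 58.4 CPM (log2 fold change 2.29, SE 0.10, adjusted p = 2.24e-09), and BAMBI, a decoy BMP receptor, at 618 and 91.0 CPM. MYC, named after its value was seen, was at 413 and 106 CPM (log2 fold change 1.97, SE 0.18, adjusted p = 2.77e-06). AXIN2, the feedback scaffold that is read as a gauge of the pathway, was high in both lines, at 311 to 444 CPM in SW48 and 658 to 875 in HCT15, under 2-fold (log2 fold change -0.97, SE 0.14, adjusted p = 6.11e-05), against 4.14 CPM in RKO.

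Of 40 tested core Wnt genes 7 were higher in each line. The TCF factors differed by member. TCF7L2, the main gut TCF, was at 183 to 220 CPM in SW48 and 43.8 to 52.8 in HCT15 (log2 fold change 2.04, SE 0.10, adjusted p = 4.81e-09), and TCF7L1, a repressor, was at 0.189 and 8.84 CPM. CTNNB1, β-catenin itself, was at 255 and 528 CPM (log2 fold change -1.06, SE 0.13, adjusted p = 1.32e-05). Ligands split as well, WNT10B and WNT9A higher in SW48 at 12.7 and 10 CPM, WNT5B and WNT10A higher in HCT15 at 9.69 and 11.4 CPM. A list of stem cell markers, which also held the differentiation marker KRT20, had 14 tested members. Of these, 6 were higher in SW48 and 2, MSI1 and KRT20, in HCT15. PROM1, encoding CD133, was at 59 to 83.9 CPM in SW48 and 0.0593 to 0.461 in HCT15 (log2 fold change 8.25, SE 0.26, adjusted p = 1.33e-10). MSI1, an RNA-binding protein of stem cells, went the other way with 1 read in SW48 and 26.6 CPM in HCT15. PTK7, the marker by which the study sorted stem-like cells, was at 243 to 305 CPM in SW48 and 277 to 328 in HCT15 and did not pass the test (log2 fold change -0.13, SE 0.10, adjusted p = 0.274), although it did without TMM at -0.33.

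The EGF receptor pathway passes growth signals through RAS to ERK, and both lines were kept with EGF in the medium. EGFR (ENSG00000146648, chromosome 7 from 55086710 to 55279321) was at 1102, 1305, 1523 and 1405 CPM in SW48. In HCT15 it was at 609 and 624 CPM in replicates 1 and 2 and at 206 and 230 in replicates 3 and 4, all below SW48 (log2 fold change 1.67, SE 0.38, adjusted p = 0.00401). AREG, a ligand, was at 10.8 and 1.21 CPM (log2 fold change 3.14, SE 0.34, adjusted p = 6.97e-06), and BTC, another, at 33.9 and 10.2. EREG overlapped between the lines, at 262 to 638 CPM in SW48 and 93.9 to 364 in HCT15, and did not pass (log2 fold change 1.09, SE 0.48, adjusted p = 0.0783), but passed without HCT15 replicates 1 and 2 at 2.18. TGFA was higher in HCT15, at 84.1 against 19.7 CPM (log2 fold change -2.09, SE 0.14, adjusted p = 1.25e-07). LRIG1, a brake on the receptor and a stem cell marker, was at 46.3 to 56.1 CPM in SW48 and 0.297 to 0.791 in HCT15 (log2 fold change 6.32, SE 0.19, adjusted p = 1.02e-10). In all, 4 of 11 tested family members were higher in SW48 and 2 in HCT15.

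Feedback targets of ERK, genes that the kinase turns on and that in part restrain it, were higher in SW48 in 6 of 19 tested members and in HCT15 in none, with a median log2 fold change of 0.51. DUSP4, a nuclear ERK phosphatase, was at 409, 481, 527 and 458 CPM in SW48 and 16.3, 15.2, 8.80 and 8.64 in HCT15 (log2 fold change 5.25, SE 0.23, adjusted p = 7.90e-09). EPHA4, a receptor kinase, was at 24.1 to 25.9 and 0.115 to 0.503 CPM, and IER3, an early response gene, at 1055 to 1439 and 52.4 to 201 CPM. The same counts were found without TMM and without SW48 replicate 2, and without HCT15 replicates 1 and 2 they were 8 and 0.

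The HOX clusters carry the factors that mark position along the body axis, and 7 of 32 tested members were higher in SW48 and 10 in HCT15. In the HOXD cluster the direction changed between neighbours. HOXD8 was at 10.4 to 13.2 CPM in SW48 and 0 to 0.503 in HCT15 (log2 fold change 5.65, SE 0.42, adjusted p = 2.84e-07), while HOXD9 had 2 reads in SW48 and 4.61 CPM in HCT15. HOXD11 and HOXD13 had no read in SW48 and 1.12 and 1.46 CPM in HCT15, at least 22.6-fold and 28.9-fold higher there. In the HOXC cluster HOXC10 was at 23.8 and 0.568 CPM and HOXC13 at 2.71 CPM against 1 read.

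Many zinc finger genes of chromosome 19 were lower in SW48. Most of them encode DNA-binding repressors and sit there in clusters of related copies. This group was chosen after its values were seen, by a symbol that starts with ZNF or ZFP and a number. Of 166 such genes tested on chromosome 19, 12 were higher in SW48 and 71 (42.8%) in HCT15, a median log2 fold change of -0.59. Of 226 on other chromosomes, 19 were higher in SW48 and 31 (13.7%) in HCT15, with a median of -0.02. Of the 734 other protein-coding genes tested on chromosome 19, 80 were higher in SW48 and 124 (16.9%) in HCT15. At most 3 reads in every SW48 library were found for 39 of the 166 genes, and at most 3 in every HCT15 library for 2. Over all 12350 protein-coding genes tested these numbers were 506 and 93, so that near-absence was more frequent in SW48 there too. A pair of stretches stood out. Their limits were also set after the values were seen, so their shares follow in part from that choice. From 36673178 to 38307940 (GRCh37) 14 of 16 tested zinc finger genes were higher in HCT15, and all 14 of these had at most 3 reads in every SW48 library. The number of the 16 with a mean under 1 CPM was 14 in SW48, 2 in HT55 and 0 in each of HCT15, DLD1, RKO and SW948. From 52516018 to 53965116 14 of 20 were higher in HCT15 and 1 in SW48, and the number with a mean under 1 CPM was 12 in SW48, 1 in HCT15, 3 in DLD1 and 0 in each of RKO, SW948 and HT55. As examples, ZNF260 was at 36.1 to 46.2 CPM in HCT15 and 0 to 0.150 in SW48 (log2 fold change -8.76, SE 0.28, adjusted p = 1.37e-10), ZNF320 had 3 reads in SW48 and 37 CPM in HCT15, and ZNF585A and ZNF816 had no read in SW48 and were at least 136-fold and 308-fold higher in HCT15. Reads that matched several related copies were not assigned by the counting, so single copies are uncertain.

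**Figure D4:**
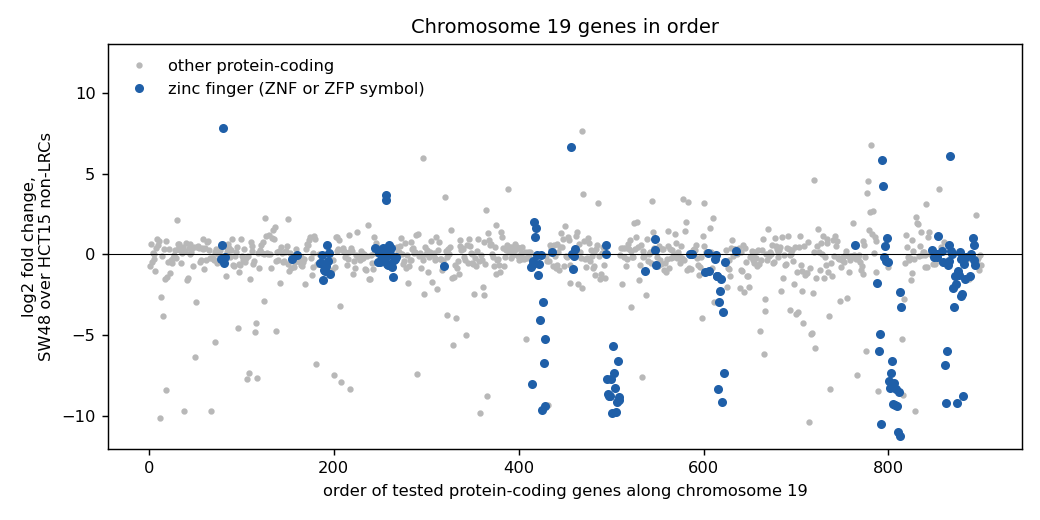
Log2 fold change of SW48 over HCT15 non-LRCs (y axis) for each tested protein-coding gene of chromosome 19, in chromosome order (x axis), with zinc finger genes in blue and other genes in grey. Runs of neighbouring blue points lie below -5 while most grey points lie near 0.

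Over all protein-coding genes most chromosomes differed little in their median, chromosome 19 among them at -0.13. Chromosome 7 had a median log2 fold change of 0.40 over 583 protein-coding genes, with 22.1% higher in SW48 and 11.5% in HCT15, and chromosome 14 a median of 0.30 over 418, with 19.9% and 11.5%. Chromosome 16 followed at 0.12, and the other chromosomes lay between -0.14 and 0.07. Copy number was not measured.

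Transporters and oxygen-related genes held single large differences. Of 16 tested ABC transporters 4 were higher in each line. ABCB1, the drug efflux pump, was at 92.0, 84.6, 148 and 180 CPM in HCT15 and 6 reads in all in SW48 (log2 fold change -10.19, SE 0.50, adjusted p = 1.27e-07). ABCG2, a second efflux pump, was higher in SW48 at 7.75, 19.6, 6.93 and 6.85 CPM against 0.727 to 1.25 (log2 fold change 3.27, SE 0.40, adjusted p = 2.97e-05). In the hypoxia and glycolysis list 8 of 33 tested members were higher in SW48 and 5 in HCT15, which became 2 and 6 without TMM. CA9, a carbonic anhydrase of low oxygen, had 2 reads in SW48 and 20.9 to 29.9 CPM in HCT15, SLC2A3, a glucose carrier, was at 0.306 and 69.6 CPM, and ALDOC, an aldolase, at 102 and 3.03. In the drug metabolism list 9 of 35 tested were higher in SW48 and 10 in HCT15. The 2 largest toward HCT15 were ALDH1A3, with no read in SW48 and at least 132-fold higher in HCT15, and GSTM3 at 0.221 and 100 CPM, and the largest toward SW48 was ALDH1A1 at 4.78 and 0.111 CPM.

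Among secreted signals, BMP7 was at 55.3 to 70.3 CPM in SW48 and 0.0593 to 0.280 in HCT15 (log2 fold change 8.49, SE 0.24, adjusted p = 5.85e-11), and 6 of 33 tested BMP and TGF-β genes were higher in SW48 and 4 in HCT15. In the hedgehog pathway, which the study followed further, 4 of 13 tested were higher in SW48 and 2 in HCT15. HHIP, the decoy that binds the ligands, was at 7.34, 45.4, 12.4 and 15.8 CPM in SW48 and 0.112 to 0.356 in HCT15 (log2 fold change 6.76, SE 0.84, adjusted p = 0.000110). GLI1, the target gene and effector, was low in both, at 0.580 and 1.43 CPM (log2 fold change -1.31, SE 0.35, adjusted p = 0.00597). Of 24 tested Notch genes 9 were higher in SW48 and 3 in HCT15, with LFNG, a sugar transferase that tunes the receptors, at 36.1 and 3.93 CPM and NOTCH3 at 5.94 and 79.2 CPM.

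Counts of cell cycle genes turned on single libraries. Of 41 S-phase genes 3 were higher in SW48 and 2 in HCT15, and of 52 G2/M genes 1 and 1. MKI67, the proliferation marker, was at 47.6, 423, 134 and 184 CPM in SW48 and 276, 328, 178 and 183 in HCT15 (log2 fold change -0.30, SE 0.57, adjusted p = 0.668). Without SW48 replicate 2, the library with the most MKI67, 13 G2/M genes and 6 S-phase genes were higher in HCT15, and 1 and 2 were higher in SW48. Without HCT15 replicates 1 and 2, the libraries of that line with the most MKI67, none was higher in HCT15, and 2 G2/M and 4 S-phase genes were higher in SW48. RRM2, a DNA precursor enzyme, was at 48.2, 226, 74.7 and 83.1 CPM in SW48 and 207 to 319 in HCT15 (log2 fold change -1.26, SE 0.44, adjusted p = 0.0341). Its call was lost when SW48 replicate 1, 3 or 4 or HCT15 replicate 1 or 2 was left out, without either HCT15 pair and without the filter on low counts. Among p53 targets 7 of 32 were higher in SW48 and none in HCT15, a median log2 fold change of 0.27, with PLK2 at 168 and 36.1 CPM and PHLDA3 at 47.0 and 12.5. Of the 8 CDK inhibitors CDKN2A was higher in SW48, at 2.13 and 0.489 CPM (log2 fold change 2.09, SE 0.38, adjusted p = 0.000364), and CDKN1B and CDKN2D were higher in HCT15.

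Markers of other cell types were read in both lines, although both are epithelial lines. Of 14 immune markers 10 were not tested for lack of reads, 2 were higher in SW48 and 1 in HCT15. PTPRC, the leukocyte surface phosphatase CD45, was at 12.4, 7.24, 21.6 and 19.3 CPM in SW48 and had no read in HCT15, at least 340-fold higher. CD68 was at 48.6 and 5.74 CPM, and CD14 at 0.156 and 7.08. The summed level of the immune list was 43.8 to 82.2 CPM in SW48 and 10.7 to 16.8 in HCT15. Of the endothelial list 3 of 7 were tested, with ENG, endoglin, at 35.4 CPM in SW48 against 2 reads in HCT15, VWF at 1.01 and 0.207 CPM, and TEK without a read in SW48. Its summed level was 30.5 to 44 and 0.989 to 2.73 CPM. The fibroblast list was alike in sum, 14.5 to 18.0 and 17.4 to 20.7 CPM, and no erythroid marker was tested. The part of other cells in the results was not tested.

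The same contrast was then made in the LRCs, which are other libraries sorted from cultures with the same replicate numbers. The LRC libraries also entered the choice of the pair, so this contrast is not independent of that choice. There 1952 of 14129 genes (13.8%) were higher in SW48 and 2278 (16.1%) in HCT15. Of the 1896 genes higher in SW48 non-LRCs 1543 were also called in LRCs, 81.4% of that list and 79.0% of the LRC list, and of the 2251 higher in HCT15 non-LRCs 1878 were, 83.4% and 82.4%. No gene was called in opposite directions. CD36 differed by 12.32 in LRCs, DUSP4 by 4.53 and LEF1 by -9.31 on the log2 scale.

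Whether the difference between lines itself differed between LRCs and non-LRCs was tested with an interaction term over 16 libraries. Of 14836 genes 24 (0.162%) passed. With replicate number within each line added as a block, 1442 (9.72%) passed. In that fit the LRC and non-LRC libraries of one line and number share a block. LRC and non-LRC libraries of one number deviated together, with correlations of 0.179 to 0.560 in SW48 and 0.312 to 0.545 in HCT15. Libraries of different numbers gave -0.400 to 0.173 in SW48 and -0.546 to 0.563 in HCT15, so that in HCT15 the highest correlation was between libraries of different numbers. In the blocked fit, 40 of 52 G2/M genes and 22 of 41 S-phase genes passed, all in the negative direction, that is, with SW48 lower relative to HCT15 in LRCs than in non-LRCs. None of these was among the 24 genes of the fit without the block. Among 32 p53 targets 11 passed in the positive and 2 in the negative direction. Among interferon-stimulated genes 5 passed, 3 of them in the positive direction.

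**Figure D5:**
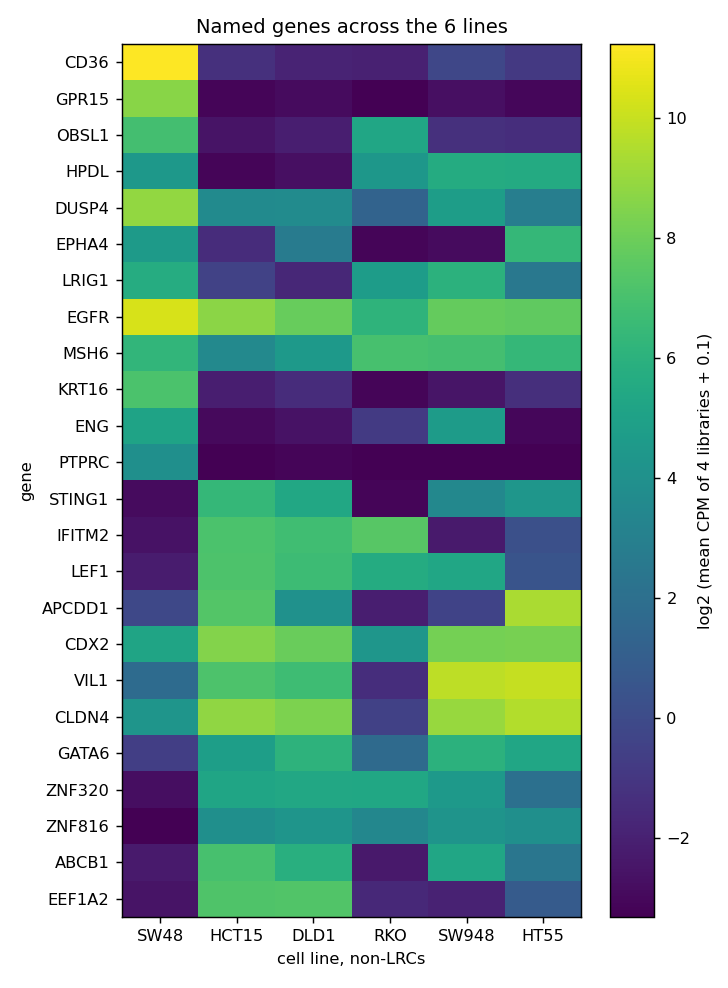
Colour gives log2 of mean CPM plus 0.1 (4 libraries per line) for 24 named genes (y axis) in the non-LRCs of the 6 lines (x axis). CD36 and GPR15 are high in SW48 alone, STING1 is low in SW48 and RKO, and LEF1, at 0.118 CPM in SW48, stands at 144 CPM in HCT15, 99.2 in DLD1 and 49.4 in RKO.

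Against RKO and DLD1 the SW48 levels fell on different sides by gene. SW48 was near RKO in STING1, at 0.0351 and 0.0157 CPM, in ABCB1, at 0.107 and 0.0997 CPM, and in EEF1A2, at 0.0702 and 0.221 CPM. It was nearer to HCT15 and DLD1 in AXIN2 and CDH1, which in RKO were at 4.14 and 0.900 CPM, and in KLF5, at 625 CPM in SW48, 206 in HCT15, 294 in DLD1 and 3.55 in RKO. IFITM2 set SW48 apart from HCT15, DLD1 and RKO, at 0.0650 CPM in SW48, 137 in HCT15, 109 in DLD1 and 174 in RKO. It was also low in SW948, at 0.11 CPM, and in HT55, at 1.08 CPM. These levels of other lines are given side by side without a test.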

How the data were processed

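RNA sequencing of day 6 CFSE-sorted spheroid cells was used, 4 non-LRC and 4 LRC libraries of SW48 and of HCT15, with the other sorted libraries for levels only and the 16 unsorted DLD1 controls not used here. The authors deposited raw counts of single-end reads per gene, not normalized, on hg19 (GRCh37). The submitters' processing notes name TopHat, HTSeq and DESeq, without versions. Depth was 13254613 to 17334036 reads on genes per non-LRC library of the pair. The study's methods call the replicates biological. The labels do not say whether they were separate cultures, and p-values measure the spread between these libraries. Both lines were maintained in different 2D media before spheroid culture according to the methods, which cannot be told apart from the line. Intervals and floors cover counting error only.

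A gene entered the tests with 10 or more counts in 4 or more samples, in R 4.3.3 with edgeR 4.0.16 (TMM, quasi-likelihood test, two-sided, Benjamini-Hochberg over all genes tested, threshold 0.05). Means and CPM used TMM over 48 sorted libraries. Gene symbols were found for 39260 of 54127 genes (72.5%), and for 1020 of 1036 entries of 43 gene lists. The pair, the members and the lists were chosen with earlier results of these data known. Genes named were the 10 protein-coding genes with the largest difference each way (adjusted p under 0.05, groups not overlapping, mean of at least 20 CPM in the higher line), up to 3 members of each list per direction with the largest difference, and a fixed set of markers, with exceptions stated. Alternatives were DESeq2 1.42.0, other filters, no TMM, a replicate block, all 48 libraries in one fit, a test against a log2 fold change of 1, and each replicate left out on the same genes. Leaving out either HCT15 pair was chosen after seeing the data. Same-numbered SW48 and HCT15 libraries did not deviate together. On simulated counts of 13860 genes with 200 changed by a log2 fold change of 1, edgeR recovered 90.5%, and 8.12% of its calls were false. DESeq2 recovered 93.5%, and 18.3% of its calls were false. In the data themselves 65.3% of genes tested passed with edgeR, so these rates need not hold there. Results for some genes are not reported here.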

Additional observations from a re-analysis of the deposited data

Results flagged for a closer look

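Among the genes named, 13 of 296 groups of 4 libraries had a highest or lowest library that stood far from the other 3, by Dixon's criterion at the 95% level. Chance alone gives such a library in about 1 group in 20. In SW48, replicate 2 was that library in all 7 cases: the highest in ABCG2 at 19.6 CPM, FDFT1 at 319 CPM, ALDH1A1 at 9.52 CPM and CDKN2D at 5.61 CPM, and the lowest in AREG at 5.61 CPM, CDH1 at 420 CPM and ESRP1 at 130 CPM. In HCT15, replicate 4 was the highest in GLI1 and HOXD13, both at 2.11 CPM, replicate 2 was the highest in MYC at 117 CPM and the lowest in NOTCH3 at 53.7 CPM, and replicate 1 was the highest in PTK7 at 328 CPM. TIMP4 was highest in HCT15 replicate 3 at 3.17 CPM.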

How the results depend on the processing

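Genes called between the lines in non-LRCs numbered 8538 to 9655 when single replicates were left out, with 1835 to 1998 called at least 2-fold higher in SW48 and 2233 to 2360 in HCT15, and in LRCs 9079 to 9859. DESeq2 called 9272 genes, and a fit with replicate number as a block shared by both lines called 8906 (1883 and 2256 at least 2-fold). Across the lines, same-numbered libraries did not deviate together (r -0.141 to 0.0509), so the number is not a pairing there. Testing against a log2 fold change of 1 left 1222 genes higher in SW48 and 1657 in HCT15. Requiring 10 counts in every sample, which leaves out genes near-absent in either line, left 1283 at least 2-fold higher in SW48 and 1142 in HCT15, so that the larger count moved from HCT15 to SW48. The interaction count of 24, with 1552 genes at an unadjusted p under 0.05, became 130 with DESeq2, 53 without a filter and 1442 with the block of replicate number within each line. The correlation of SW48 with HCT15 was 0.892 by Spearman, 0.384 over the 1000 most variable genes and 0.841 with a prior count of 0.5, against 0.853, 0.0740 and 0.808 with RKO. Leaving out single replicates gave 0.860 to 0.865. Of 3437 values for the 209 tested genes that the naming rule and later picks gave, not all of them described in the text, 63 lost their call, 4 gained one and 0 reversed. The cause of these moves was not tested where none is named. Among genes at 1 to 3 reads in a line, depth limits the ratio to the intervals given.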

Other observations

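The other gene lists held fewer tested members or smaller differences. Of 25 cholesterol synthesis genes 2 were higher in SW48 and 3 in HCT15. CYP51A1, lanosterol demethylase, was at 28.6 and 11.8 CPM (log2 fold change 1.27, SE 0.21, adjusted p = 0.000191), while FDFT1, squalene synthase, was at 217 and 541 CPM. Of 26 tested DNA and histone methylation regulators 1 was higher in SW48, DNMT3A at 31.4 and 10.6 CPM, and 2 in HCT15, ARID1A and SETD2. Of 28 colorectal driver genes 5 were higher in SW48 and 3 in HCT15. Of 23 MHC class I presentation genes 1 was higher in each line, TAP2 in SW48 and TAPBP, the loading chaperone tapasin, in HCT15 at 84.4 and 274 CPM (log2 fold change -1.70, SE 0.09, adjusted p = 1.14e-08). B2M, the light chain, was at 129 and 80.8 CPM, under 2-fold. Of 5 tested MHC class II genes HLA-DOB was higher in SW48 and CD74, HLA-DPA1 and HLA-DQB1 in HCT15. Among 16 tested chemokine and NF-κB genes 5 were higher in SW48 and 7 in HCT15. CX3CL1, a membrane-bound chemokine, had 3 reads in SW48 and 8.65 CPM in HCT15, a ratio of 173 (interval 59.1 to 844), and TNFAIP2 was at 17.3 and 1.42 CPM.

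Of 4 tested CEACAM genes CEACAM5, the carcinoembryonic antigen, was higher in SW48 at 5.26 and 0.487 CPM, and CEACAM1 and CEACAM19 were higher in HCT15. Of 8 tested metalloproteinases and inhibitors MMP11 was higher in SW48, and MMP24 and TIMP4 were higher in HCT15. Of the CIMP panel CDKN2A was higher in SW48 and IGF2 in HCT15. SERPINA1 was higher in SW48 among 2 tested apolipoprotein and liver-type genes, and the 1 tested cancer-testis gene was not called. The 2 fibroblast markers higher in HCT15 were COL1A1 and PDGFRB.

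The largest interactions by adjusted p without the block were in SPNS2, a sphingosine phosphate exporter, ENC1 and SLC7A8, an amino acid carrier. SPNS2 was at 22 CPM in LRCs and 5.26 in non-LRCs of SW48, and at 34.1 and 29 in HCT15 (interaction on the log2 scale 1.85, adjusted p = 0.000182).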
